A study of Mus musculus with 56 samples.

Results

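Continued exposure to cigarette smoke for 24 weeks was set against the RA arm of smoke cessation, in which mice stopped smoke after 12 weeks, across all measured genes of the mouse calf muscle. The comparison took the arrays whose source label gives 24 weeks of smoke and those whose source label gives 12 weeks of smoke followed by 12 weeks of RA, 12 of the 56 arrays of the series. Each group had 6 arrays from 6 mice. RNA came from the gastrocnemius of female C57BL/6 mice, and biotin-labelled cDNA amplified from it was read on expression arrays with 1 array per sample. No transgene or deletion is given for any group, and the ages of the mice and the hour of tissue collection are not given in the sources used here.

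Mice of the 24-week smoke group breathed mainstream smoke at 4% through the nose for 2 hours a day on 5 days a week over 24 weeks. Mice of cessation RA had the same smoke schedule for 12 weeks and were then sham exposed for 12 weeks, so both groups share the first 12 weeks of smoke and the total length. Cessation FA, used below beside RA, had the same 12 weeks of smoke and 12 weeks of sham exposure, and the 24-week air group had sham exposure alone for 24 weeks, with 6 arrays each. FA and RA are not spelled out in the sources used here. The sham air labels carry FA as well and none carries RA, so whether the air of the RA mice was of the same kind is not known. Pieces of whole muscle were homogenised, so fewer cells of a type and less RNA per cell cannot be told apart in any value below. The protocol in the labels gives 6 mice per group.

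Muscle holds its own circadian clock, as most tissues do. The activators CLOCK, its relative NPAS2 and their partner BMAL1 (gene Arntl) switch on the Per and Cry genes, whose products then block the activators, and the nuclear receptors REV-ERB alpha and beta (Nr1d1, Nr1d2) repress Arntl, Clock and Npas2. Arntl and the Per genes therefore peak at different hours of the day. Myogenin (Myog) is a transcription factor of muscle differentiation that also responds to loss of nerve input, and Cish is a feedback inhibitor that STAT5 switches on after growth hormone and other cytokines.

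Of the 12 arrays, 6 stood apart through lymph node genes. Glycam1, a gene of lymph node vessels, had an intensity of 7019 to 10222 in smoke replicates 1, 2 and 6 and in RA replicates 1, 4 and 5, and of 14 to 264 in the other 6 arrays. Over the whole series 12 of 56 arrays exceeded 2000, and leaving them out left 3 arrays of each group. Of 13 lymphocyte markers 9 were measured, and their summed intensity ran from 269 to 38700 in smoke and from 301 to 12900 in RA, against 269 to 495 in smoke and 301 to 396 in RA among the remaining arrays. Smoke replicate 6 stood furthest apart, with a mean r across genes of 0.826 to the other arrays, where the other 11 had 0.947 to 0.975. The mean log2 level of the 6 muscle genes, which include Acta1 and Des, was 13.16 to 13.32 in smoke and 13.25 to 13.35 in RA, so every array held muscle RNA. These levels are near the top of the intensity scale, and whether they would show other tissue in a piece was not tested. Array medians of intensity ran from 62.6 to 77.5 over the 12 arrays. Precision is limited by how many arrays there are.

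Levels below are log2 of the intensity plus 16, with SD between mice, and differences are smoke minus RA with their SE on that log2 scale. Folds are on the same scale and understate changes of dim genes. The genes Per2, Myog and Cish were given as marking this comparison. Gene lists and the genes with a permutation test were chosen with earlier results of these data known. The p values of all such genes describe the separation and are not independent support. The threshold was an adjusted p of 0.05 (limma, Benjamini-Hochberg over 12351 genes). Of these, 289 passed (2.34%), 116 higher with smoke (0.939%) and 173 lower (1.4%). The median difference of all genes was -0.01, and the 289 had a median size of 0.47. Differences of over 2-fold were seen for 8 genes that rose and 19 that fell. In 36 genes (0.291%) every smoke array lay above every RA array, and in 46 genes (0.372%) every smoke array lay below.

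Without the Glycam1 arrays, 405 genes passed (3.28%), 222 higher (1.8%) and 183 lower (1.48%). A total of 154 genes (1.25%) passed with the same sign both ways, 69 higher and 85 lower. These were 53.3% of the 289 and 38% of the 405. All 289 genes had the same sign in the remaining 3 and 3 arrays as in the 3 and 3 Glycam1 arrays taken alone, which choosing them on all 12 arrays favours. With all arrays but smoke replicate 6, 250 genes passed, 151 higher and 99 lower, and 150 of them were among the 289. The count was 142 without RA replicate 3 and 155 without RA replicate 2, while it was 475 without smoke replicate 3 and 481 without smoke replicate 4. With only the 2 groups in the fit, 4 genes passed: Nr1d1, Aplnr, Wee1 and Slc25a25. That fit takes the spread from far fewer arrays, those of the 2 groups alone, while the main fit pools it over all 9 groups. The plot of both sets of differences shows how the genes lie around the diagonal.

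**Figure D1:**
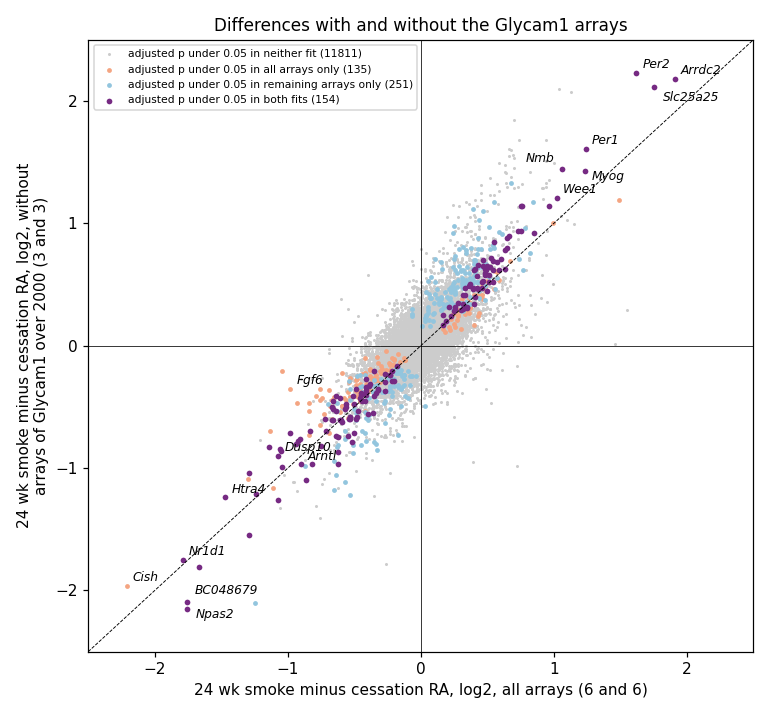
Each point is 1 of 12351 genes, with the difference of 24 weeks of smoke minus cessation RA (log2) over all arrays on the x axis and over the arrays without Glycam1 above 2000 on the y axis. Purple points (154) passed the threshold in both fits, orange (135) with all arrays only and blue (251) with the remaining arrays only, and the dashed line marks equal differences.

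The lowest p values of the comparison were those of the clock genes Nr1d1, Wee1 and Npas2. Of 25 measured members of the clock list, 6 rose and 4 fell, against 0.939% and 1.4% of all genes, and 8 rose and 4 fell both without the Glycam1 arrays and without smoke replicate 6. The activators were lower in smoke, where 3 of 4 measured members fell and none rose. Of 13 repressors 3 rose and 1 fell, and of 8 outputs 3 rose and none fell.

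Nr1d1 (REV-ERB alpha, the repressor of Arntl) had a lowest, median and highest level of 7.63, 8.87 and 9.27 in smoke, against 10.40, 10.54 and 10.78 in RA. All smoke arrays lay below all RA arrays, and smoke replicate 6 was the lowest. It fell by 1.79 ± 0.16 on the log2 scale, or 3.46-fold (adjusted p = 3.5e-11, two-sided exact permutation p = 0.0022, the smallest that 6 against 6 arrays can give). Without the Glycam1 arrays smoke replicates 3, 4 and 5 were at 8.87, 8.87 and 8.86 and RA replicates 2, 3 and 6 at 10.57, 10.50 and 10.78, a difference of -1.75 ± 0.17 (adjusted p = 1.3e-08).

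Npas2, the CLOCK relative, had 5.74, 6.63 and 6.93 in smoke, against 7.52, 8.12 and 8.89 in RA (lowest, median and highest level). The groups did not overlap, with a difference of -1.76 ± 0.20 (3.39-fold lower, adjusted p = 9.7e-08) and of -2.15 ± 0.26 without the Glycam1 arrays (adjusted p = 1.5e-06). The smoke levels of Npas2 lie near the filter on dim genes (5.71), which limits how well its fold is known. Of its 2 probe sets 1 lay above that filter. Arntl (BMAL1) had 8.45, 9.13 and 9.24 in smoke, against 9.58, 9.79 and 10.37 in RA, again with no overlap, and fell by 0.90 ± 0.16 (adjusted p = 0.00037). Clock fell by 0.56 ± 0.09 (adjusted p = 0.00019), with 9.68, 10.12 and 10.20 in smoke, against 10.38, 10.60 and 10.83 in RA. Arntl and Clock fell by 0.97 and 0.50 without the Glycam1 arrays and passed there too. The fourth measured activator, Rora, did not pass (adjusted p = 0.34).

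The Per genes, whose proteins block the activators, were higher in smoke. Per2 had 8.50, 9.67 and 10.11 in smoke, against 7.35, 7.94 and 8.38 in RA, so every smoke array lay above every RA array although smoke replicate 6, at 8.50, was close to the highest RA array. It rose 3.07-fold, by 1.62 ± 0.20 (adjusted p = 4.4e-07, two-sided exact permutation p = 0.0022). In the remaining arrays Per2 was at 10.11, 9.93 and 9.98 in smoke, against 7.35, 7.77 and 8.21 in RA, a difference of 2.23 ± 0.25 (adjusted p = 4.6e-07), while the Glycam1 arrays alone gave 1.00.

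Per1 had 7.73, 8.74 and 9.15 in smoke, against 7.10, 7.30 and 7.97 in RA. The overlap came from smoke replicate 6, the only smoke array within the RA range. Per1 rose by 1.24 ± 0.22 (adjusted p = 0.00034) and by 1.61 ± 0.28 without the Glycam1 arrays (adjusted p = 0.00079). Per3 had 10.34, 10.86 and 11.24 in smoke, against 9.88, 10.28 and 10.83 in RA, overlapped, and rose by 0.53 ± 0.14 (adjusted p = 0.024). Its value depends on the probe set: of 4 bright probe sets 1 had this sign, and the 4 ran from -0.42 to 0.53. The mean over all 6 of its probe sets, dim ones included, differed by -0.01.

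**Figure D2:**
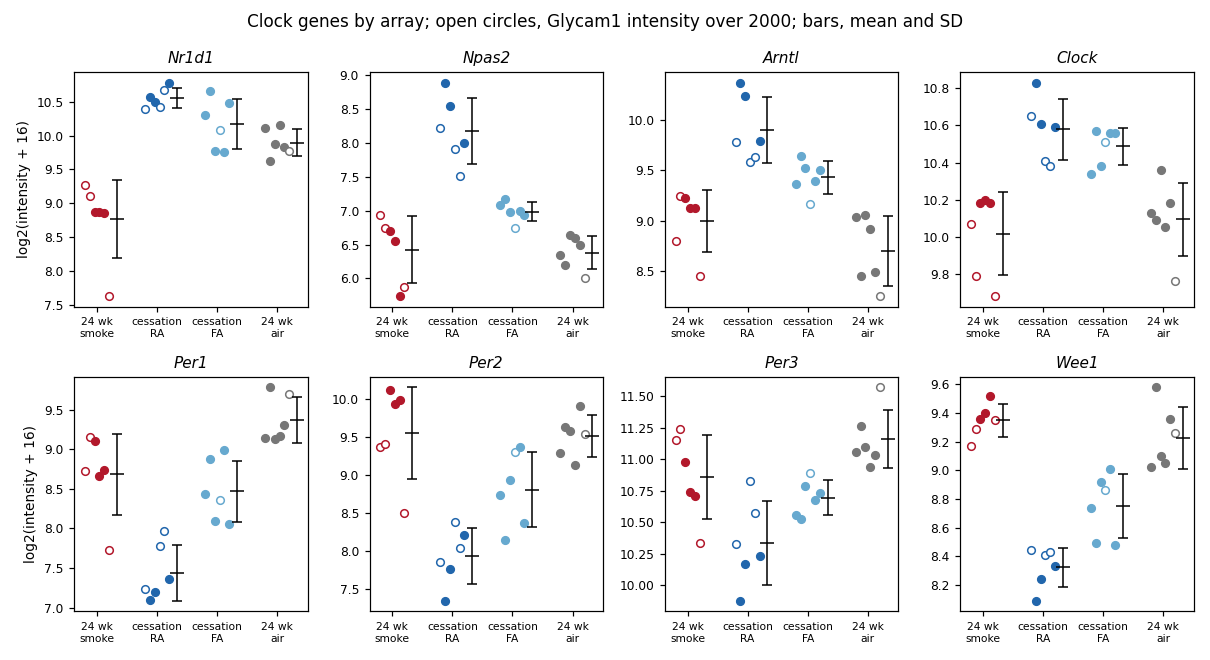
Levels of 8 clock genes, as log2 of intensity plus 16, in every array of 24 weeks of smoke, cessation RA, cessation FA and 24 weeks of air (6 each). Open circles are arrays with a Glycam1 intensity over 2000, bars give mean and SD, and Nr1d1, Npas2, Arntl, Clock, Per2 and Wee1 do not overlap between smoke and RA.

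Among the outputs, Wee1, a kinase that delays entry into mitosis and follows the clock in mouse liver, had 9.17, 9.36 and 9.52 in smoke, against 8.09, 8.37 and 8.44 in RA. The spread was small in both groups and they did not overlap, with a rise of 1.02 ± 0.10 (adjusted p = 5e-10) and of 1.21 ± 0.14 without the Glycam1 arrays (adjusted p = 4.6e-07). Noct (nocturnin), a rhythmic transcript in many tissues, rose by 0.60 ± 0.11 (adjusted p = 0.00037), with 9.70, 10.55 and 10.77 in smoke, against 9.69, 9.79 and 9.98 in RA. Smoke replicate 6 was the only smoke array within the RA range for Noct. The tetraspanin Tspan4 also rose (adjusted p = 0.0099).

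The other clock genes did not pass with all arrays. With the Glycam1 arrays left out, Usp2, a deubiquitinase that follows the clock, rose by 0.31 ± 0.05 (adjusted p = 0.00033) and Cry2, the partner of the Per proteins, by 0.39 ± 0.08 (adjusted p = 0.0044), against 0.17 ± 0.06 and 0.08 ± 0.12 with all arrays. Dbp, an output factor that binds D-boxes, differed by -0.22 ± 0.14 with all arrays and by 0.14 ± 0.17 without the Glycam1 arrays. Nr1d2, the close relative of Nr1d1, was at 12.20 ± 0.21 in smoke and 12.22 ± 0.05 in RA, a difference of -0.02 ± 0.06 (n = 6 each, limma adjusted p = 0.88). Its other bright probe set had 0.06. Ciart, a further repressor, differed by 0.46 ± 0.24 (adjusted p = 0.34) and by 0.85 ± 0.36 without the Glycam1 arrays.

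Promoters of 4 clock genes that moved and hold a searched motif of clock control are shown, because the known control of this gene set runs through short motifs. Sequences are from RefSeq on GRCm38.p6, 250 bases before to 30 bases after a transcription start, 5′ to 3′ on the gene's strand, and capitals mark matches on either strand. Per1 lies at chr11:69098699-69098978 (plus strand), with an E-box, the motif of CLOCK and BMAL1, that begins 166 bases before the start. Per3 lies at chr4:151044636-151044915 (minus strand), with 2 D-boxes, the motif of Dbp and its relatives, that begin 205 and 158 bases before it. The second listed start of Arntl lies at chr7:113207261-113207540 (plus strand), with a RORE, the motif of the ROR and REV-ERB receptors, 9 bases before it. Nr1d1 lies at chr11:98775348-98775627 (minus strand), with an E prime box, a variant of the E-box, 28 bases before it.
Per1: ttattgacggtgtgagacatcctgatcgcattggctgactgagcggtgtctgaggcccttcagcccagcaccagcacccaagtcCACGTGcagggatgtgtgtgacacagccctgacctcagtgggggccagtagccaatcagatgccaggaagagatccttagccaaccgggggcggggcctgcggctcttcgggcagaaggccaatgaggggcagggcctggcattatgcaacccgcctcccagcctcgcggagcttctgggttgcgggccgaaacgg
Per3: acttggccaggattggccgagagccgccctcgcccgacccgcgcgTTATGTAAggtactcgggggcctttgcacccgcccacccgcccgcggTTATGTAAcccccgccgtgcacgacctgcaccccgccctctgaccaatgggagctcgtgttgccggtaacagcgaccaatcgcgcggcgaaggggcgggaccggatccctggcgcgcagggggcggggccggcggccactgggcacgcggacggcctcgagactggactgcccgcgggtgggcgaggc
Arntl: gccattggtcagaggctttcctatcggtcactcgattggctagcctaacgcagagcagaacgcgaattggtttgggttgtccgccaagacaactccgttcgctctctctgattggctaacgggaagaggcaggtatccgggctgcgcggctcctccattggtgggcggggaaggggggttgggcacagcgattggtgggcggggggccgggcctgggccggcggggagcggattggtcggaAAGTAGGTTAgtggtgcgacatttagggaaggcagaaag
Nr1d1: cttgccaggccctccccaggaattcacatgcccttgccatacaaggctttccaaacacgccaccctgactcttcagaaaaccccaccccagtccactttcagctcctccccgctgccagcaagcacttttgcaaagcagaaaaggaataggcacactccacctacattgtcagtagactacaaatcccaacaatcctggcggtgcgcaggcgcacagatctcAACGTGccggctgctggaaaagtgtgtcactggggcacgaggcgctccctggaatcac

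Each motif was searched by its letters on both strands of 32851 RefSeq promoters of the same length, and the matches printed do not overlap each other. The E-box (CACGTG) was found in 6.79% of them, the E prime box (CACGTT) in 4.35%, the D-box (TTATGTAA) in 0.895%, the RORE (AANT directly before AGGTNA) in 0.648% and the STAT motif (TTCNNNGAA) in 7.83%. The cAMP motif (TGACGTCA) was in 1.74%, the MEF2 motif (CTA and TAG with any 4 bases between them) in 3.5% and a glucocorticoid receptor motif (ACANNNTGT) in 6.42%. Of 13 genes looked up 11 had a promoter in the table, and Per2 and Wee1 had none. No searched motif was in the windows of Npas2, Noct, Myog, Arrdc2, the first listed start of Arntl or the 3 listed starts of Clock, and the second listed start of Per1 held a STAT and a MEF2 motif and no E-box. A match is a string of letters and not a bound site. Only the printed letters were searched, so a window without a match, that of Myog included, may hold a site spelled otherwise.

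The same clock genes were read beside 24 weeks of air, with all arrays. The comparisons share arrays, so they are given side by side and not as independent results. Against air, 217 genes passed in RA (1.76%) and 58 in smoke (0.47%). RA minus air was 1.80 for Npas2, 1.20 for Arntl, 0.48 for Clock, -1.58 for Per2, -1.93 for Per1, -0.83 for Per3 and -0.90 for Wee1, and each passed. Smoke minus air was 0.04 for Npas2, 0.29 for Arntl, -0.08 for Clock, 0.04 for Per2, -0.68 for Per1, -0.30 for Per3 and 0.12 for Wee1, and none passed. Nr1d1 passed on both sides, with 0.66 in RA minus air (adjusted p = 0.015) and -1.13 in smoke minus air (adjusted p = 4.6e-05). Dbp also passed on both sides, with -0.48 in RA minus air (adjusted p = 0.048) and -0.70 in smoke minus air (adjusted p = 0.0079). Ciart was at -1.41 in RA minus air (adjusted p = 0.00029) and at -0.95 in smoke minus air (adjusted p = 0.054). Nr1d2 passed on neither side, with -0.06 and -0.09.

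Cessation RA and cessation FA differ only in the arm's name, as far as the labels go, and were compared directly. In RA minus FA 3 genes passed (0.0243%), and without the Glycam1 arrays 4 did (0.0324%). With all arrays 512 genes had an unadjusted p under 0.05. Npas2 was at 8.18 ± 0.49 in RA and 6.99 ± 0.14 in FA (n = 6 each), higher by 1.20 ± 0.20 (limma adjusted p = 0.0023) and by 1.45 without the Glycam1 arrays (adjusted p = 0.0016). Crip3, which codes for a cysteine-rich LIM protein, was higher in RA than FA by 1.43 ± 0.27 (adjusted p = 0.013), with all arrays only. Hdac9, a histone deacetylase of muscle, averaged 8.09 in RA and 8.91 in FA, a difference of -0.82 ± 0.12 (n = 6 each, limma adjusted p = 0.00019). It passed without the Glycam1 arrays too, at -0.94. Its other probe set is given below for smoke minus RA only and was not compared between RA and FA.

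Per1 differed between RA and FA by -1.03 ± 0.22 (adjusted p = 0.055), and by -1.27 without the Glycam1 arrays, which passed (adjusted p = 0.036). The fourth gene there was Pfkfb2, a regulator of glycolysis, at 0.52 (adjusted p = 0.0016). Per2, at -0.87 ± 0.20 (adjusted p = 0.1), Wee1, at -0.43 ± 0.10 (adjusted p = 0.1), Arntl, at 0.47 ± 0.16 (adjusted p = 0.86), and Nr1d1, at 0.38 ± 0.16 (adjusted p = 0.96), did not pass. In smoke minus FA 438 genes passed (3.55%). The difference was -1.41 for Nr1d1, 0.74 for Per2, 0.60 for Wee1 and -0.47 for Clock, which passed. It was -0.56 for Npas2, -0.43 for Arntl and 0.22 for Per1, which did not pass.

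Myog was higher in smoke. It had 8.57, 9.74 and 10.67 in smoke, against 8.02, 8.66 and 9.03 in RA (lowest, median and highest level). Of the smoke arrays, 5 lay above the highest RA array and replicate 6 lay within the RA range. Myog rose 2.35-fold, by 1.23 ± 0.27 (adjusted p = 0.0052, two-sided exact permutation p = 0.0087). In the remaining arrays it was at 10.60, 9.53 and 10.67 in smoke, against 8.99, 8.48 and 9.03 in RA, a difference of 1.43 ± 0.28 (adjusted p = 0.0025). RA minus air was -1.15 (adjusted p = 0.012) and smoke minus air 0.08 (adjusted p = 0.87).

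Of 18 measured genes of myogenic regulation, 2 rose and 1 fell, against 0.939% and 1.4% of all genes, and their median was -0.01, while 2 rose and none fell without the Glycam1 arrays (median 0.22, 16 of 18 above 0) and 3 rose and none fell without smoke replicate 6 (median 0.16). Beside Myog, Id3, which blocks muscle-forming transcription factors, rose by 0.40 ± 0.09 (adjusted p = 0.011) and by 0.62 without the Glycam1 arrays (adjusted p = 0.0034). Fgf6, a growth factor of muscle, had 4.96, 6.88 and 7.92 in smoke, against 7.26, 7.73 and 8.00 in RA. The 3 smoke arrays below the RA range were the Glycam1 arrays, and the difference of -0.98 ± 0.28 (adjusted p = 0.04) became -0.35 ± 0.22 without them (adjusted p = 0.39). Myod1 and Myf5, the factors that commit cells to muscle, did not pass (adjusted p = 0.99 and 0.52).

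Nerve contact genes were searched because Myog responds to denervation. Of 15 measured genes of the synapse and of the denervation response 1 rose and none fell, against 0.939% and 1.4% of all genes. Their median was -0.17, or 0.04 without the Glycam1 arrays and 0.00 without smoke replicate 6. The riser was Hdac9, at 0.43 ± 0.12 (adjusted p = 0.039) and 0.66 without the Glycam1 arrays (adjusted p = 0.025), on 1 of 2 bright probe sets, the other being at -0.04. The acetylcholine receptor subunits Chrna1 and Chrng and the organiser Musk did not pass (adjusted p = 0.46, 0.3 and 0.93).

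Cish had the largest difference of all genes that passed with all arrays. It had 6.65, 7.22 and 8.80 in smoke, against 8.22, 9.89 and 10.50 in RA. Smoke replicate 3, at 8.80, was the only smoke array within the RA range. Cish fell by 2.21 ± 0.52, or 4.62-fold (adjusted p = 0.011, two-sided exact permutation p = 0.0065). In the remaining arrays it was at 8.80, 6.65 and 6.66 in smoke, against 8.22, 9.73 and 10.05 in RA, and the difference of -1.96 ± 0.79 did not pass (adjusted p = 0.16). In the Glycam1 arrays alone it was -2.45. Against air, neither group passed, with 1.75 in RA minus air (adjusted p = 0.066) and -0.46 in smoke minus air (adjusted p = 0.58).

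Of 23 measured genes of cytokine and STAT signalling 2 fell and none rose, against 1.4% and 0.939% of all genes, none passed without the Glycam1 arrays, and 1 rose and 1 fell without smoke replicate 6. Stat5b, the factor that drives Cish, had 11.24, 11.92 and 12.01 in smoke, against 12.07, 12.13 and 12.16 in RA, with no overlap. It fell by 0.31 ± 0.08 (adjusted p = 0.036), and the difference was -0.21 ± 0.09 without the Glycam1 arrays (adjusted p = 0.2). Socs2, another inhibitor switched on by STAT5, and Igf1, a growth factor downstream of growth hormone, did not pass (adjusted p = 0.28 and 0.76). The receptor gene Ghr did not pass either (adjusted p = 0.54). The Cish promoter, at chr9:107296409-107296688 on the plus strand (GRCm38.p6, RefSeq), is shown because STAT motifs are its known control, and capitals mark 2 such motifs, which begin at the start and 11 bases after it.
Cish: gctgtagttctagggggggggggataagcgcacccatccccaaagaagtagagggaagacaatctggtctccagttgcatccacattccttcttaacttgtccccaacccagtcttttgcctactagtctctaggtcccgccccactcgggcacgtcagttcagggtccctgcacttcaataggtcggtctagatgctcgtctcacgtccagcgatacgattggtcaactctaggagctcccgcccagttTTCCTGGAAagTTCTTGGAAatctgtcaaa

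**Figure D3:**
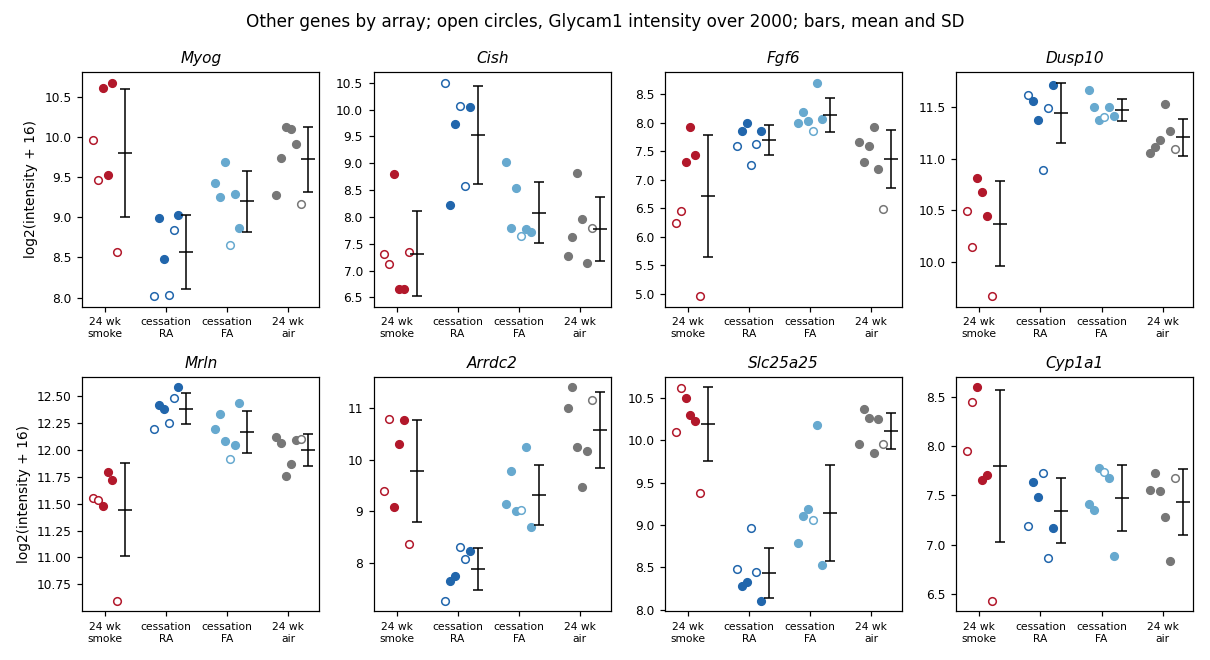
Levels of 8 further genes, as log2 of intensity plus 16, in every array of 24 weeks of smoke, cessation RA, cessation FA and 24 weeks of air (6 each), with mean and SD. Open circles mark a Glycam1 intensity over 2000: in Fgf6 the low smoke arrays are open circles, and in Dusp10, Mrln, Arrdc2 and Slc25a25 smoke and RA do not overlap.

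Further genes were separated as clearly. Dusp10, a phosphatase that switches off stress kinases, had 9.67, 10.47 and 10.81 in smoke, against 10.89, 11.53 and 11.71 in RA. It fell by 1.07 ± 0.13 (adjusted p = 2.5e-07) and by 0.90 ± 0.13 without the Glycam1 arrays (adjusted p = 4.7e-05). Mrln, which codes for myoregulin, a small inhibitor of the calcium pump of muscle, had 10.60, 11.54 and 11.79 in smoke, against 12.19, 12.40 and 12.58 in RA. It fell by 0.94 ± 0.12 (adjusted p = 1.8e-06) and by 0.80 ± 0.12 (adjusted p = 0.00015). Both groups kept apart in both genes, with smoke replicate 6 lowest.

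Slc25a25, a mitochondrial carrier of ATP and phosphate, had 9.38, 10.27 and 10.61 in smoke, against 8.11, 8.39 and 8.97 in RA. It rose by 1.75 ± 0.21 (adjusted p = 1.4e-07) and by 2.11 ± 0.29 without the Glycam1 arrays (adjusted p = 1.7e-05). It was chosen after its values were seen, and its probe set carries a suffix for sequence shared with other transcripts. Cys1, which codes for the cilium protein cystin, rose by 0.96 ± 0.14 (adjusted p = 1.3e-05) and Nmb, the peptide neuromedin B, by 1.06 ± 0.21 (adjusted p = 0.0022). Mid1, a ubiquitin ligase bound to microtubules, rose by 1.49 ± 0.33 (adjusted p = 0.0065), with 1.19 ± 0.46 without the Glycam1 arrays (adjusted p = 0.14).

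Smaller but tight rises were those of Nrip1, a corepressor of nuclear receptors in muscle (0.48 ± 0.08), Rapgef3, the cAMP sensor EPAC1 (0.51 ± 0.10), Tmem39b (0.39 ± 0.07), Maco1 (0.33 ± 0.06) and BC065397 (0.73 ± 0.12), with adjusted p from 0.00019 to 0.0019. All of them passed without the Glycam1 arrays, at 0.47 to 0.94. BC065397 was dim, with a mean of 6.46 in smoke and 5.73 in RA. The filter on dim genes lay at 5.71, which limits how well its fold is known. Rapgef3 had 8.76, 8.86 and 9.16 in smoke, against 8.27, 8.35 and 8.68 in RA, with no overlap. Nrip1 had 11.92, 12.33 and 12.38 in smoke, against 11.55, 11.79 and 11.88 in RA, also apart.

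Several dim transcripts fell by more than 2-fold. Htra4, a secreted serine protease, had 5.37, 5.54 and 6.35 in smoke, against 6.59, 7.11 and 7.84 in RA, and fell by 1.47 ± 0.25 (adjusted p = 0.00028). Differences of -1.76 ± 0.35 for BC048679, -1.67 ± 0.29 for BE949265, -1.29 ± 0.23 for D630024D03Rik, -1.29 ± 0.21 for the protease Prss55 and -1.24 ± 0.27 for Crip3 also passed in both fits. Mucl1, a small mucin-like protein, fell by 1.30 ± 0.31 (adjusted p = 0.012), and its difference was -1.09 ± 0.44 without the Glycam1 arrays (adjusted p = 0.16). Probe sets at these levels lie near the filter of 5.71, which limits how well their folds are known.

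Among brighter genes that fell, Pla2g7, the enzyme that inactivates platelet-activating factor, had 8.29, 8.86 and 9.78 in smoke, against 9.82, 10.06 and 10.60 in RA, and fell by 1.14 ± 0.19 (adjusted p = 0.00028). Stc2, the secreted glycoprotein stanniocalcin 2, fell by 1.05 ± 0.18 (adjusted p = 0.00028), with 7.22, 7.44 and 7.80 in smoke, against 7.98, 8.30 and 9.27 in RA. Neither gene overlapped between the groups. Afdn, an adaptor of cell junctions, fell by 0.60 ± 0.10 and Zhx2, a transcriptional repressor, by 0.45 ± 0.08 (adjusted p = 0.00028 each), and all of these passed without the Glycam1 arrays.

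Genes that glucocorticoids are known to raise gave 4 rises and 1 fall among 16 measured members, against 0.939% and 1.4% of all genes, with a median of 0.18 (0.33 without the Glycam1 arrays, with 4 rises and 1 fall). The receptor gene Nr3c1 was at -0.10 ± 0.13 (adjusted p = 0.73). Arrdc2, an arrestin domain protein, had 8.36, 9.84 and 10.80 in smoke, against 7.27, 7.91 and 8.31 in RA. It rose 3.75-fold, by 1.91 ± 0.39 (adjusted p = 0.003), with no overlap, and by 2.18 ± 0.52 without the Glycam1 arrays (adjusted p = 0.015). Tsc22d3, the leucine zipper protein GILZ, rose by 0.50 ± 0.09 (adjusted p = 0.00069), with 11.94, 12.24 and 12.40 in smoke, against 11.50, 11.75 and 11.88 in RA. The 4 bright probe sets of Tsc22d3 ran from 0.06 to 0.50. The kinase gene Sgk1 rose (adjusted p = 0.024), and Per1, also on this list, is given above.

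Cdkn1a, the cell cycle inhibitor p21, went the other way and fell by 0.82 ± 0.20 (adjusted p = 0.013), with 8.17, 9.35 and 9.58 in smoke, against 9.47, 9.86 and 10.80 in RA. Without smoke replicate 6 the list had 4 rises and no fall. Fkbp5, Ddit4, Klf9 and Zbtb16, which steroid treatment raises in muscle, did not pass (adjusted p = 0.49, 0.33, 0.61 and 1). Pdk4, a kinase that inhibits pyruvate dehydrogenase, was at 13.24 ± 0.07 in smoke and 13.01 ± 0.29 in RA, a difference of 0.23 ± 0.14 (n = 6 each, limma adjusted p = 0.44).

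Of 16 measured genes of muscle wasting 1 rose and 1 fell, against 0.939% and 1.4% of all genes, with a median of -0.23. Without the Glycam1 arrays none rose and 3 fell (median -0.17), and without smoke replicate 6 none passed (median -0.09). The 3 were among 6 autophagy genes: Ulk1, Bnip3, at -0.18 ± 0.05 (adjusted p = 0.047), and Gabarapl1, at -0.61 ± 0.15 (adjusted p = 0.022). With all arrays Bnip3 was at -0.19 and Gabarapl1 at -0.40, and neither passed. Trim63 and Fbxo32, the muscle ubiquitin ligases MuRF1 and atrogin-1, differed by -0.31 ± 0.15 and -0.46 ± 0.22 (adjusted p = 0.29 each). Ulk1, the kinase that starts autophagy, fell by 0.45 ± 0.11 (adjusted p = 0.018) and by 0.39 ± 0.09 without the Glycam1 arrays (adjusted p = 0.011). Without smoke replicate 6 the difference was -0.26 (adjusted p = 0.061). Cblb, a ubiquitin ligase of unloaded muscle, rose by 0.49 ± 0.13 (adjusted p = 0.028), with 0.45 ± 0.15 without the Glycam1 arrays (adjusted p = 0.085), and 1 of its 3 bright probe sets was at -0.03.

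Of 10 measured endothelial markers 3 fell and none rose, against 1.4% of all genes lower, and 3 fell both without the Glycam1 arrays and without smoke replicate 6. Cdh5, the junction protein VE-cadherin, fell by 0.47 ± 0.10 (adjusted p = 0.0048), with 9.17, 9.50 and 10.20 in smoke, against 9.84, 10.05 and 10.14 in RA. Kdr, the main VEGF receptor, fell by 0.62 ± 0.14 (adjusted p = 0.0079) and Tek, the angiopoietin receptor, by 0.41 ± 0.10 (adjusted p = 0.016). Without the Glycam1 arrays the values were -0.53 for Cdh5, -0.87 for Kdr and -0.40 for Tek, and all passed.

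Smoke replicate 1 lay at the top of the smoke arrays for Cdh5 and above the RA range, while the other 5 lay below it. The summed intensity of the 10 endothelial markers, none below the filter on dim genes, was 3920 to 8350 in smoke and 6870 to 7740 in RA. Among the remaining arrays it was 5790 to 7100 in smoke and 7110 to 7740 in RA. The other 7 markers did not pass, of which Vwf was at 0.02, Flt1 at 0.06 and Emcn, Eng, Esam, Pecam1 and Tie1 at -0.31 to -0.16. Whether the 3 falls reflect the whole cell type was not tested.

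Of 7 angiogenic signals 1 fell, against 1.4% of all genes, the apelin receptor Aplnr, found on endothelium. It had 10.17, 10.27 and 10.30 in smoke, against 10.65, 11.02 and 11.11 in RA, with no overlap. The difference was -0.69 ± 0.19 (adjusted p = 0.038), and without the Glycam1 arrays the difference was -0.71 ± 0.27 (adjusted p = 0.13). RA minus air was 1.14 (adjusted p = 0.00022) and smoke minus air 0.44 (adjusted p = 0.15). Its ligand gene Apln and Vegfa did not pass (adjusted p = 0.4 and 0.53).

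AHR, a receptor that senses smoke hydrocarbons, its partner Arnt and 4 measured targets gave no call. Cyp1a1, its main target and an enzyme that breaks such compounds down, had 6.43, 7.83 and 8.60 in smoke, against 6.86, 7.33 and 7.73 in RA. Smoke arrays lay on both sides of the RA range, and the difference of 0.45 ± 0.25 did not pass (adjusted p = 0.36, two-sided exact permutation p = 0.21). Without the Glycam1 arrays it was 0.56 ± 0.32 (adjusted p = 0.35). Of 11 measured genes of the NRF2 antioxidant response 1 rose, against 0.939% of all genes, and none fell. It was the factor Nfe2l2 itself, at 0.25 ± 0.07 (adjusted p = 0.043), and at 0.18 ± 0.10 without the Glycam1 arrays (adjusted p = 0.34). There 1 target fell, the thioredoxin reductase Txnrd1, at -0.34 ± 0.08 (adjusted p = 0.016), which was at -0.23 ± 0.07 with all arrays (adjusted p = 0.054). The 2 bright probe sets of Nfe2l2 had -0.28 and 0.25, and their mean was -0.02. Nqo1, a target of both AHR and NRF2, differed by -0.52 ± 0.16 (adjusted p = 0.072).

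Metabolic and fibre genes gave few calls. Of 24 genes of fatty acid use 1 rose, against 0.939% of all genes, and none fell. It was Ucp3, the uncoupling protein of muscle mitochondria, which rose by 0.99 ± 0.27 (adjusted p = 0.038), with 1.00 ± 0.37 without the Glycam1 arrays (adjusted p = 0.13). Without those arrays none rose and 2 fell, the fatty acid binding protein gene Fabp3, at -0.37 (adjusted p = 0.026), and Hadha, of fatty acid oxidation, at -0.38 (adjusted p = 0.04). The median of this list was -0.18, or -0.21 without the Glycam1 arrays and -0.06 without smoke replicate 6, and with all arrays 3 of 24 lay above 0, where 5908 of 12351 genes did. None of the 17 genes of glucose and glycogen use or of the 21 genes of the respiratory chain passed, and their medians were -0.06 and -0.02. All 12 genes of the slow fibre list, which also holds the type IIa myosin gene Myh2, lay below 0 without any call. Their median was -0.39, or -0.56 without the Glycam1 arrays and -0.25 without smoke replicate 6. The slow genes Myl3, at -0.39 ± 0.16, and Tpm3, at -0.73 ± 0.30, had an adjusted p of 0.2 each. Of 5 bright probe sets of Tpm3 2 had this sign, and the 5 ran from -0.73 to 0.16. The 12 fast fibre genes had a median of -0.01. They averaged 12.92 (Casq1) to 13.79 (Mylpf) in smoke, near the top of the intensity scale, and whether that narrows their differences was not tested.

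Smox, spermine oxidase of polyamine breakdown, was at 9.93 ± 0.57 in smoke and 10.45 ± 0.24 in RA and did not pass (n = 6 each, -0.51 ± 0.18, limma adjusted p = 0.12), with -0.16 without the Glycam1 arrays. Of 14 genes of the unfolded protein and heat shock responses 1 rose, against 0.939% of all genes, the co-chaperone Dnajb1, by 0.85 ± 0.18 (adjusted p = 0.0048), and it passed without the Glycam1 arrays at 0.92. Of 10 interferon targets 1 fell, against 1.4% of all genes, the antiviral gene Rsad2, by 1.07 ± 0.26 (adjusted p = 0.016), and it passed there too at -1.26. The 3 bright probe sets of Rsad2 ran from -1.07 to -0.08. No member of the immediate early list (14 measured) passed with all arrays. Jun, a factor of that list, was at 0.32 ± 0.12 (adjusted p = 0.16) and rose by 0.54 without the Glycam1 arrays (adjusted p = 0.022).

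Lists of other cell types gave no call. Lymphocyte markers (9 measured) had a median of 0.34 and macrophage markers (9 measured) of 0.22, and these were 0.18 and 0.15 without the Glycam1 arrays. Without smoke replicate 6 alone they were -0.53 and -0.01. That removal leaves fewer Glycam1 arrays in smoke than in RA, and the part of replicate 6 in the medians was not tested. Cell cycle genes (9 measured) had 0.49 with all arrays, 0.02 without the Glycam1 arrays and -0.01 without smoke replicate 6. Adipocyte markers (8 measured) had 0.02 with all arrays and 0.69 without the Glycam1 arrays, where their summed intensity was 26600 to 29800 in smoke and 23600 to 25400 in RA. Schwann cell markers (4 measured) had 0.41 and 0.98, with summed intensities of 6650 to 9250 in smoke and 4290 to 6120 in RA among the remaining arrays. None of the members of these last 2 lists lay below the filter, and their part in the differences above was not tested. The plot of the gene lists gives each member's value.

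**Figure D4:**
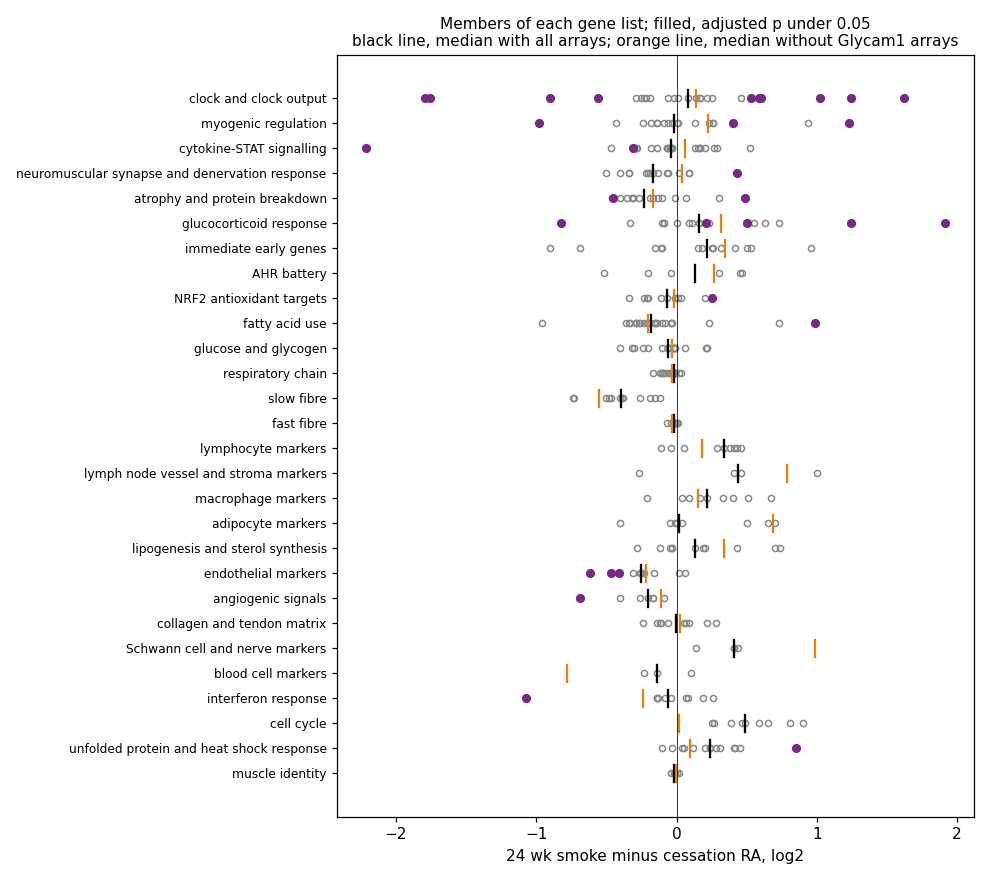
Each circle is the difference of 24 weeks of smoke minus cessation RA (log2, all arrays) of 1 member of 28 gene lists, filled where the adjusted p was under 0.05. Black lines are the list medians with all arrays and orange lines the medians without arrays of Glycam1 over 2000, and calls are most frequent among clock genes (10 of 25).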

How the data were processed

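Total RNA from mouse gastrocnemius was amplified, biotin-labelled and read on 1-colour expression arrays, 56 in 9 groups. The deposited values are the authors' intensity per probe set, from -20 to 15890, with 0.46% below 0; the sources used here do not give how they were background-corrected or scaled. Probe sets were named from the platform annotation: of 45037, 34945 had 1 gene symbol, 932 several and 9160 none, and only the first were used. Intensities were floored at -15 (5 of 2522072 values), 16 was added and log2 taken of the deposited intensity. The probe set with the highest mean stood for a gene, and genes with a mean level above the 40th percentile (5.71) were tested, 12351 of 18193.

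All 9 groups entered 1 limma fit (lmFit and eBayes, residual degrees of freedom 46), with Benjamini-Hochberg adjustment over all genes tested. It was repeated without arrays of Glycam1 over 2000. Fixed genes also had a two-sided exact permutation test over 924 splits, whose smallest p is 0.0022 (0.1 for 3 against 3 arrays). Replicate numbers only name arrays. Named genes were the 10 largest changes each way and the 12 lowest p values each way among called genes, a fixed set of clock, muscle and smoke genes, and up to 4 members of each list. Members, lists and tests were chosen with earlier results of these data known, and some lists come from that earlier work. Alternatives covered the pseudocount, the filter, probe set choice, quantile normalization, moderation, array weights, covariates, the groups fitted and each array left out. On data simulated for this comparison with 12351 genes, 95 of 100 genes changed by 1 (log2) and 60 of 100 changed by 0.5 were found, with 4 false calls. The simulated noise was normal and independent, with 1 spread per gene shared by all groups. It held no lymph node arrays and no outlying array, so these figures may not hold for the measured arrays. Fits were run in R 4.3.3 with limma 3.58.1, files were read with the package data.table (version 1.17.8), and figures were drawn in Python 3.11.15 with matplotlib 3.10.9.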

Additional observations from a re-analysis of the deposited data

Results flagged for a closer look

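Single arrays stood far from the other 5 of their group, by Dixon's criterion on the gap to the nearest array, in 22 gene and group pairs. These are pairs of the 90 named genes with smoke or RA, and chance alone gives about 1 in 20 groups tested. The pairs share arrays, so they are not independent and cannot be set against that rate. Most were smoke replicate 6, the array with the highest lymphocyte markers. It was the lowest smoke array for Nr1d1 (7.63), Nr1d2 (11.80), Per1 (7.73), Noct (9.70), Mrln (10.60), Stat5b (11.24), Tek (9.27), Ulk1 (8.67), Trim63 (10.06), Nqo1 (8.58), Des (12.29), Ndufs1 (12.19), the red cell gene Alas2 (5.79) and the Schwann cell gene S100b (5.73), and the highest for Mcm6, a replication gene (10.89). The part of lymph node RNA in these values was not tested.

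Smoke replicate 3 was the highest smoke array for Cish (8.80), and smoke replicate 1 the lowest for Aplnr (10.17). In RA, replicate 5 was the highest for Crip3 (9.07) and for Maco1 (9.90), and replicate 4 the highest for Rapgef3 (8.68). RA replicate 6 stood apart for Fbxo32 (12.61) and Nfe2l2 (10.78).

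Both cessation arms had the same smoke schedule, and the smoke comparison differed between them in 3 genes by the direct RA minus FA contrast (limma, adjusted over all genes). The differences were 1.20 for Npas2, 1.43 for Crip3 and -0.82 for Hdac9.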

How the results depend on the processing

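The count of 289 genes stayed between 214 and 387 under the pseudocount, filter, probe set, normalization, moderation and numbering alternatives. It was 405 without the arrays of Glycam1 over 2000, 602 with array weights, 775 with the lymphocyte marker mean as a covariate, 4 with the 2 groups alone (699 at an unadjusted p under 0.05) and 28 with the 2 groups alone and no Glycam1 arrays. An unadjusted p under 0.05 was reached by 1953 genes in the main fit and by 699 with the 2 groups alone. Without the Glycam1 arrays these counts were 2355 and 2411. Fitting 2 groups alone takes the spread from fewer arrays, and from these groups only. The SE and adjusted p values above use the spread pooled over all 9 groups, which can differ from that of these 2 groups. What moved the counts was not tested. Leaving out 1 array gave 142 (RA replicate 3) to 481 (smoke replicate 4), and also moved the count by over 1.5 times for RA replicate 2 (155) and smoke replicate 3 (475). Without the Glycam1 arrays 3.28% of genes passed, 0.227% with the 2 groups alone, and from 0.931% (without smoke replicate 5) to 3.85% (without smoke replicate 3) when 1 of the remaining arrays was left out, with 1.28% for RA replicate 3, 1.39% for RA replicate 6, 1.58% for smoke replicate 4 and 1.79% for RA replicate 2. Smoke replicate 5 is the only array of the 2 groups whose description number lies outside the main run of such numbers. What that number stands for is not given, and 310 genes passed without all arrays outside that run. In RA minus FA 3 genes passed with all arrays, 4 without the Glycam1 arrays and 2 with the 2 groups alone, none of them among the 3. Taking the mean of probe sets reversed Per3 (-0.01) and Nfe2l2 (-0.02). Of 50 called genes named, 39 passed with each of the 12 arrays left out in turn, and Nr1d1, Wee1 and Slc25a25 passed in every setting run. Per2 ranged from 1.00 to 2.23 over settings (highest adjusted p 0.092), Myog from 1.04 to 1.49 (0.44), Cish from -2.51 to -1.91 (0.2), Npas2 from -2.15 to -0.91 (0.055) and Per1 from 0.87 to 1.61 (0.16). No paired analysis was possible because the labels carry no replicate number shared by the groups. Signal near background limits the folds of dim genes.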
